A study of Mus musculus with 5 samples.

Results

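Reelin and the genes through which cells respond to it were followed in nuclei of the mouse paraventricular hypothalamus. The set holds 4 of the 31054 features in the count matrices, chosen by symbol: Reln, Dab1, Vldlr and Lrp8. The series comprises 5 single-nucleus RNA libraries (10x Genomics), each pooled from 2 to 4 male mice on a C57BL6 background and carrying no mark of the single animal. In the first experiment, OT-Cre mice (Cre under control of the oxytocin gene) carrying the Ai9 tdTomato reporter had been exposed in utero on gestation day 12.5, through an injection of the dam, to 10 mL/kg saline (saline library) or to 500 mg/kg sodium valproate (VPA library), and were 5 weeks old when taken. The second experiment used OT-Cre mice carrying the Rosa26dreaddm3 (stop-hM3) allele. All had been exposed to valproate in utero, received saline (hM3 control library) or clozapine N-oxide, the ligand of the hM3 receptor (CNO, 2 libraries), on postnatal day 2, and were 5 to 7 weeks old when taken. These mice also received an AAV in the paraventricular and supraoptic regions; its content is not given in the sources used here. The experiments differ in genotype, virus and age, so each contrast was made within its own experiment. Sorting favoured large nuclei, and all shares below are shares of sorted nuclei.

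Reelin is a large secreted glycoprotein, best known for guiding the layering of migrating neurons in the developing cortex and cerebellum, and secreted in the adult forebrain largely by inhibitory interneurons. It binds the lipoprotein receptors encoded by Vldlr and Lrp8 (apolipoprotein E receptor 2), and the clustered receptors bring the adaptor protein Dab1 to Src-family kinases, which phosphorylate it. Phosphorylated Dab1 then recruits Crk, phosphoinositide 3-kinase and the Lis1 complex, and is removed through the ubiquitin ligase component Cul5.

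The feature both receptors share is the short cytoplasmic docking site for Dab1. Its codons are given here because they are what makes Vldlr and Lrp8 receptors for the same adaptor, while their levels followed a different order of cell classes in these data. The sequences are 30 coding bases, 5′ to 3′ on the plus strand of mm10 (GRCm38), from the longest annotated coding transcript in GENCODE vM21, with the 18 bases of the docking motif in capitals.
Vldlr: atgaacTTTGACAATCCTGTGTACttgaag
Lrp8: atgaatTTCGACAACCCAGTGTACaggaaa
The Vldlr stretch lies at chr19:27247928-27247957 in exon 18 of 19 and the Lrp8 stretch at chr4:107869049-107869078 in exon 17 of 19. Of the 30 bases 23 were identical, and 15 of the 18 in the motif. In-frame codons for the FDNPxY docking motif occurred in 8 of 21760 genes with a coding sequence (0.0368%).

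Reln spans chr5:21884454-22344702 on the minus strand, Dab1 chr4:103619359-104744844, Vldlr chr19:27216484-27254231 and Lrp8 chr4:107802261-107876840, all 3 on the plus strand. Antisense genes overlap Reln (Gm10475) and Lrp8 (Lrp8os2), and whether counting used strand or introns is not given in the sources used here. Reads of a gene and its antisense partner may therefore be mixed, and levels are compared between cells, never between these genes.

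Values for the 5 libraries are given in the order saline, VPA, hM3 control, then CNO replicates 1 and 2. After filters they held 5208, 9829, 4946, 4135 and 5419 nuclei, of which 3819, 7531, 3171, 2712 and 2833 were neurons by marker UMIs. The median neuron held between 6153 UMIs (VPA) and 17496 UMIs (CNO replicate 1). Libraries shared at most 23 barcodes, or 0.374% of the smaller library. Neurons of the paraventricular lineage, with the transcription factors Sim1 or Otp and with oxytocin and vasopressin neurons included, made up 24.8%, 15.7%, 16.8%, 9.44% and 14.4% of neurons. Those without the oxytocin and vasopressin neurons, called Sim1/Otp neurons from here on, were 21.0%, 14.0%, 13.5%, 8.30% and 9.07%. The dissected tissue also held thalamus-type neurons, at 14.6%, 4.91%, 6.87%, 11.7% and 15.2%. Types needed a minimum of marker UMIs, and 13.5%, 38.3%, 13.3%, 14.8% and 28.8% of neurons stayed without a type, the most in the shallow VPA library, which limits any comparison of these shares. Levels are CPM, the UMIs of a gene in each 1000000 UMIs of the named cells. Intervals are 95% exact counting intervals; they hold no variation between mice, preparations or nuclei. With 1 library in 3 of the arms no contrast was tested: setting 1 library against 2, an exact permutation test cannot go below p = 0.33.

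Reln was chiefly a neuronal transcript. Neurons held between 93.0% and 97.4% of all Reln UMIs while making up 52.3% to 76.6% of nuclei. They also held most UMIs of all genes together, 56631057 of 67737317 deposited UMIs with saline and 52012093 of 66905868 with VPA. Its level in neurons was 144 CPM with saline, 159 with VPA, 135 in the hM3 control, and 87.4 and 94.3 with CNO. In every library neurons lay above astrocytes, whose level of 58.4 ± 5.06 (SD, n = 5 libraries) varied little. Oligodendrocytes carried 6.38 ± 4.00 CPM on 42 UMIs in 2557 nuclei. At a matched depth of 3000 UMIs per nucleus, a Reln UMI was present in 13.2% to 19.9% of neurons, 11.3% to 15.7% of astrocytes and 0% to 1.43% of oligodendrocytes, the last taken here as the background share; free RNA was not measured directly. The 0% stood for 0 of 43 oligodendrocytes in CNO replicate 2, with an upper limit of 8.22%. Before thinning the shares in the same nuclei were 26.7% to 32.7%, 15.2% to 21.7% and 1.03% to 2.53%. Nuclei too shallow to be thinned were left out, 9 to 398 neurons, 65 to 1174 astrocytes and 97 to 477 oligodendrocytes per library.

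**Figure D1:**
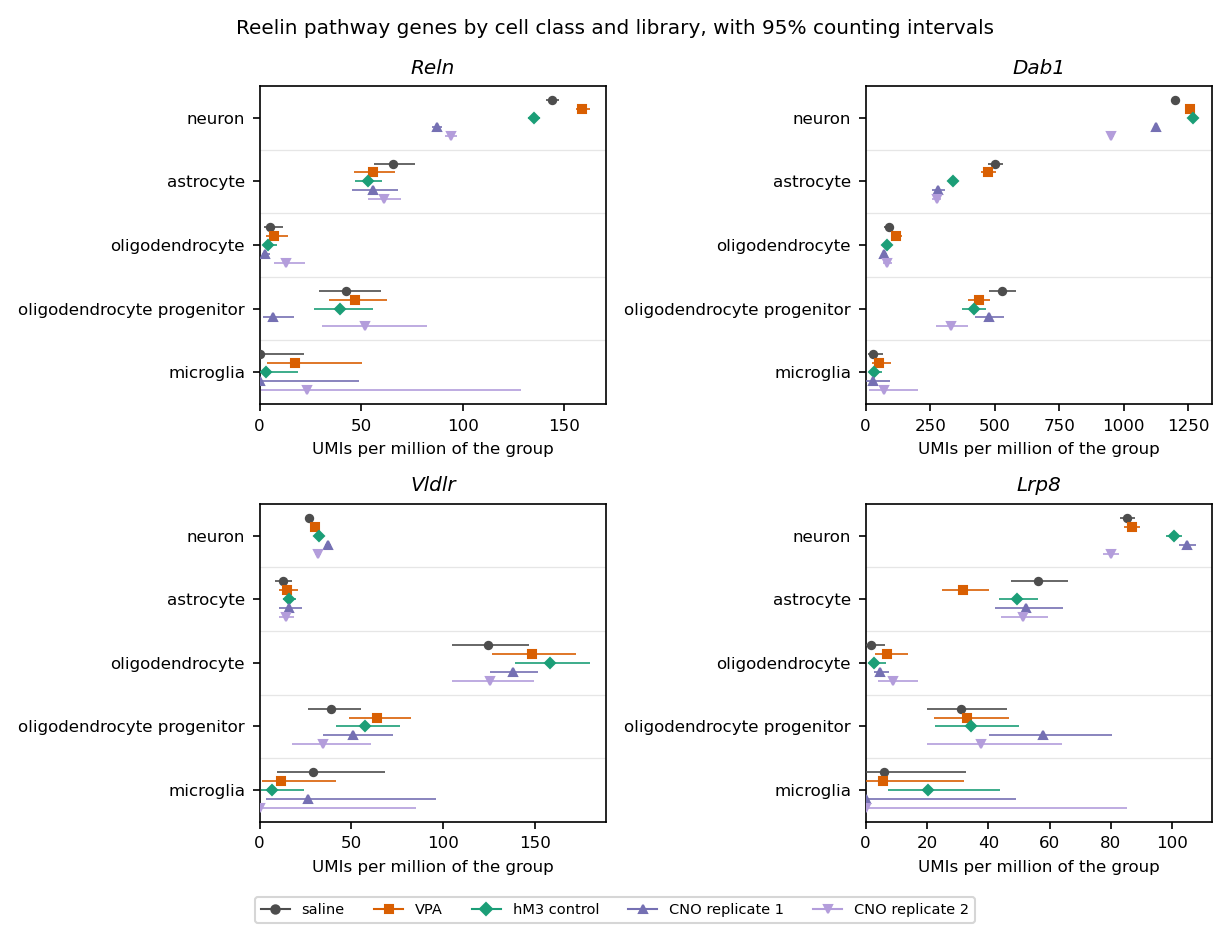
CPM (x axis) of Reln, Dab1, Vldlr and Lrp8 in 5 cell classes, 1 point per library with its 95% counting interval. Reln, Dab1 and Lrp8 were highest in neurons among these classes, and Vldlr in oligodendrocytes, between 124 and 158 CPM.

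The intracellular adaptor Dab1 had the same order of neurons above glia, with 1198, 1257, 1269, 1125 and 952 CPM in neurons of the 5 libraries. Oligodendrocyte progenitors (438 ± 74.2, SD, n = 5) and astrocytes (375 ± 108, SD, n = 5) overlapped each other. Both lay above oligodendrocytes at 88.9 ± 17.3 (SD, n = 5), and astrocytes exceeded oligodendrocytes 4.14-fold on average. Microglia held 42.2 ± 18.2 CPM on only 29 UMIs.

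The receptors differed in which cell class had the higher level. Vldlr stood at 124, 148, 158, 138 and 126 CPM in oligodendrocytes, against 27.0, 30.3, 32.6, 37.4 and 31.8 in neurons. Oligodendrocytes exceeded neurons 4.37-fold on average, and the groups did not overlap. Progenitors lay between them at 49.1 ± 12.3, and astrocytes lowest at 14.7 ± 1.47 (SD, n = 5 for both). Neurons held 79.7% to 85.3% of Vldlr UMIs, near their share of the UMIs of all genes. That share was 56631057 of 67737317 deposited UMIs with saline and 52012093 of 66905868 with VPA.

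Lrp8 had the opposite order of neurons and oligodendrocytes. It stood at 85.4, 86.9, 100.6, 105 and 80.0 CPM in neurons, and at 1.74, 6.98, 2.63, 4.63 and 8.98 in oligodendrocytes, which rested on 38 UMIs in all. Endothelial nuclei held 119 ± 40.4 (SD, n = 3 libraries with at least 20 nuclei) on 90 UMIs, overlapping the neurons. Astrocytes (48.3 ± 9.47) and progenitors (38.7 ± 10.9, SD, n = 5 for both) were intermediate.

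Among neurons, Reln varied widely between types. Types were set by marker UMIs, and none of the 4 genes was a marker. Sim1/Otp neurons that were neither rich in Ebf1 and Ebf2 nor positive for Sim2 carried 315, 291, 312, 236 and 224 CPM of Reln in the 5 libraries, the highest mean of any type (276 ± 43.0, SD). Oxytocin neurons followed with 380, 215, 191, 247 and 141, the value for CNO replicate 1 resting on 19 nuclei. These ranges overlapped, so the order of the first 2 types is not settled. GABAergic neurons together had 130, 159, 129, 102 and 95.1. The Ebf-rich Sim1/Otp neurons, a neighbouring type in the same lineage, were lower at 74.7 ± 36.1 (SD, n = 5), and vasopressin neurons had 51.8 ± 35.3 (SD, n = 4). Thalamus-type neurons were low in every library, with 22.5, 19.3, 38.3, 23.0 and 22.2. Of the 18 pairs of types next to each other in the order of mean Reln levels, 1 did not overlap from lowest to highest library: Lhx8 GABAergic neurons over orexin or MCH neurons, whose mean ± SD ranges did overlap (57.7 ± 1.71 and 55.4 ± 0.850, n = 2 libraries each).

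**Figure D2:**
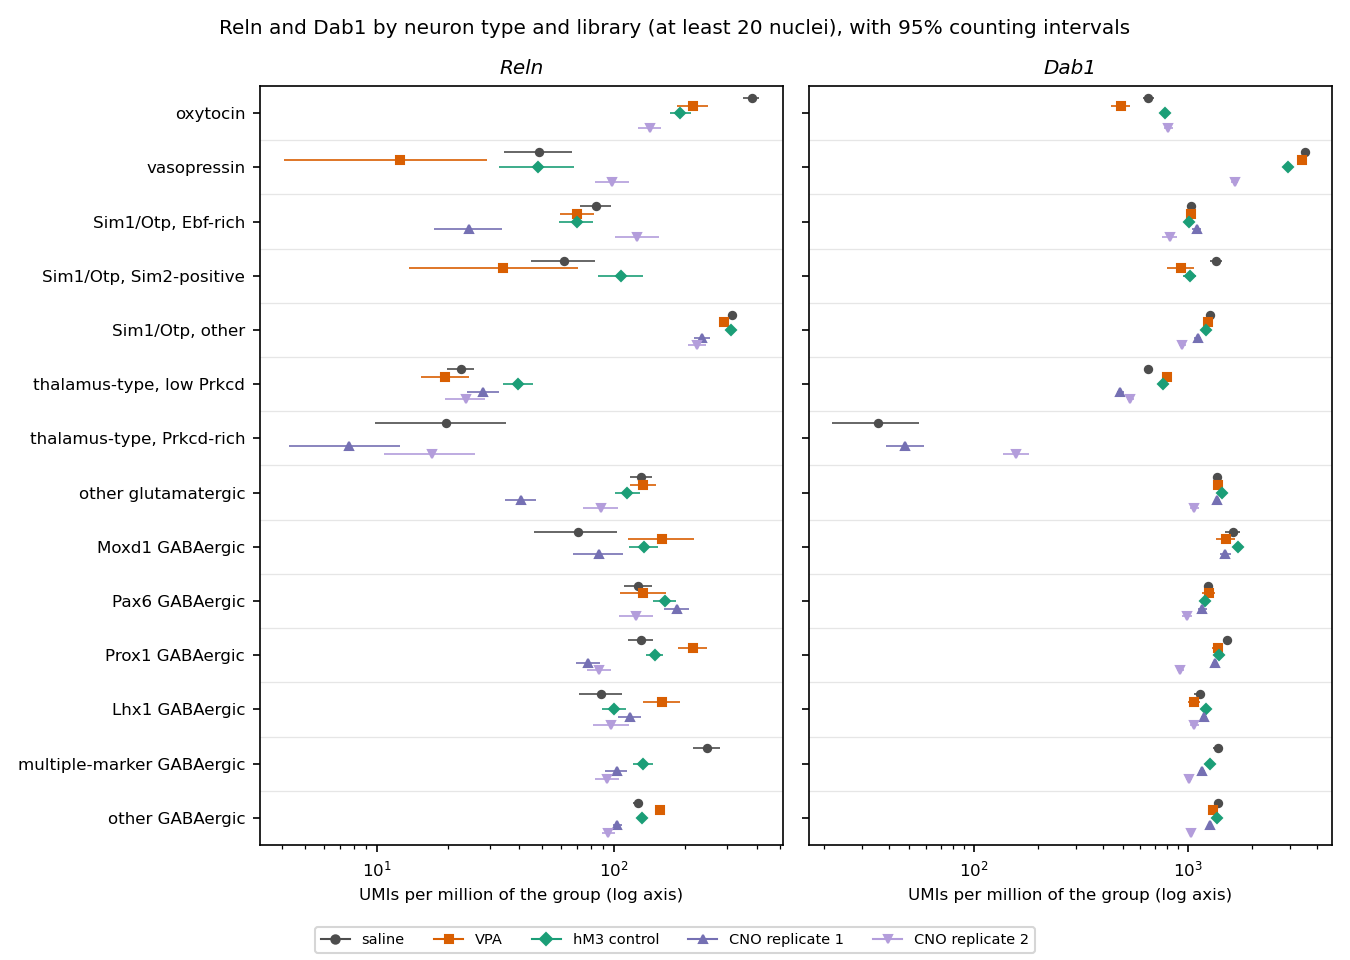
CPM (x axis, log scale) of Reln and Dab1 in 14 neuron types, for libraries with at least 20 nuclei, 1 point per library with its 95% counting interval. Reln was highest in the remaining Sim1/Otp neurons and in oxytocin neurons, whereas Dab1 was highest in vasopressin neurons.

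Reln was concentrated in few nuclei. Nuclei with at least 5 Reln UMIs were 12.9% of neurons in the saline library and held 86.4% of its neuronal Reln UMIs. In the other libraries 8.33% to 16.9% of neurons held 67.0% to 88.3%, with the lowest shares in the shallow VPA library. The remaining Sim1/Otp neurons had a Reln UMI at matched depth in 27.8%, 27.9%, 29.2%, 28.7% and 29.6% of nuclei in the 5 libraries, a share that hardly varied, while without thinning it was 40.2%, 34.9%, 41.5%, 45.7% and 45.2%. In GABAergic neurons it was 17.9%, 22.4%, 18.3%, 16.0% and 16.9%, or 29.9% to 40.5% without thinning. Since UMIs of 1 nucleus are not independent, the counting intervals on Reln are too narrow as a measure of spread between nuclei. Markers of Cajal-Retzius cells, the reelin source of the developing cortex, summed over 6 genes to 36.9 to 57.0 CPM in neurons, to 71.3 to 103.7 in Sim1/Otp neurons, 166 to 497 in vasopressin neurons and 17.3 to 31.0 in GABAergic neurons. Trp73, which defines those cells, gave 0.849 to 2.11 in neurons; the part of such cells in the Reln levels was not tested.

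**Figure D3:**
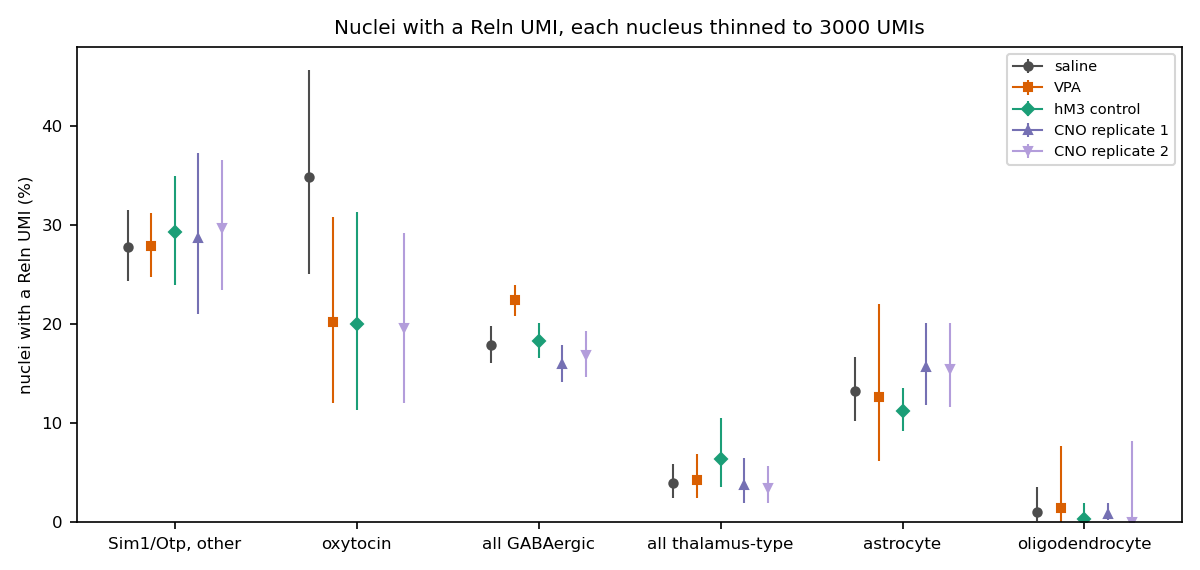
Percentage of nuclei with a Reln UMI (y axis) after thinning each nucleus to 3000 UMIs, by cell group, 1 point per library with its 95% exact binomial interval and at least 20 nuclei. The remaining Sim1/Otp neurons lay between 27.8% and 29.6% in all 5 libraries, and oligodendrocytes at or below 1.43%.

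Dab1 had another order, with the highest mean in vasopressin neurons, whose libraries overlapped those of Moxd1 GABAergic neurons (1586 ± 104, SD, n = 4), the next type. Vasopressin neurons carried 3517, 3414, 2944, 2757 (12 nuclei) and 1652 CPM of Dab1 in the 5 libraries. Every value exceeded the oxytocin neurons of the same library, at 653, 485, 785, 599.5 and 811 CPM, by 4.22-fold on average, or 4.13-fold over the 4 libraries with at least 20 nuclei of both. In CNO replicate 2, where the level was lowest, the same nuclei held more of other markers: the 3 GABA neuron markers summed to 142 CPM there, 99.9 in CNO replicate 1 and 39.049 in the hM3 control, and Sim1 stood at 260, 643 and 701. The part of this in the lower level was not tested. Oxt and Avp UMIs outside these types were also high in that library, with 119 Oxt and 50.9 Avp CPM in its oligodendrocytes. Its oxytocin neurons had 614 Oxt and its vasopressin neurons 594 Avp. Whether such UMIs came from free RNA was not tested.

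Most other types lay close together in Dab1. GABAergic neurons had 1254 ± 142 and Sim1/Otp neurons 1115 ± 121 CPM (SD, n = 5). Thalamus-type neurons were lower, at 648 ± 137 (SD, n = 5) where Prkcd was low and at 80.6 ± 67.4 (SD, n = 3) where it was rich. Oxytocin neurons, at 683 ± 149 (SD, n = 4), overlapped the former.

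The receptors varied less between neuron types. Mean Vldlr levels ran from 17.4 in Lhx8 GABAergic to 39.6 in Sst GABAergic neurons, each from 2 libraries. Mean Lrp8 levels ran from 49.7 in Prkcd-rich thalamus-type and 60.7 in vasopressin neurons to 115 in Lhx8 GABAergic neurons. Of the combined groups, GABAergic neurons stood at 96.0 ± 10.6, Sim1/Otp neurons at 95.8 ± 13.5 and thalamus-type neurons, which did not overlap the others, at 70.5 ± 7.84 (SD, n = 5). For both receptors all 18 neighbouring pairs in the order of types overlapped from lowest to highest library. Only 1 of 18 pairs did not overlap for Reln and 2 of 18 for Dab1, so this count does not set the receptors apart.

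Across the 8 pairs of groups compared, picked after the levels were seen, 7 had the same direction in 5 of 5 libraries. These were Reln in the remaining Sim1/Otp over GABAergic neurons (2.26-fold) and over Ebf-rich neurons (4.13-fold), and in GABAergic over thalamus-type neurons (4.98-fold); Dab1 in vasopressin over oxytocin neurons and in astrocytes over oligodendrocytes; Vldlr in oligodendrocytes over neurons; and Lrp8 in neurons over oligodendrocytes (21.6-fold). Since the pairs were chosen for these levels, no test is given. Endothelial nuclei exceeded neurons in Lrp8 in 4 of 5 libraries (1.68-fold). Of the libraries with at least 20 endothelial nuclei it was 2 of 3, at 1.29-fold; the VPA and CNO replicate 1 libraries held 13 and 8.

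By the rule fixed for naming genes, those with the most similar levels over 27 classes and neuron types were listed among 14596 genes, as a description. For Reln these were Lrrc27 (Pearson r 0.85), the antisense gene Gm10475 (0.84), Mpp4, 4930428E07Rik and Elmod1 (0.83 each). For Dab1 they were Asic2, an acid-sensing ion channel (0.95), Gm44151, Galntl6, Chd5 and Xkr6. For Vldlr they were Larp6 (0.84), the collagen receptor Ddr1, Tspan2, Phldb1 and Atp10b, and for Lrp8 Arhgap26 (0.95), Mcf2l, Samd12, Cers4 and Esrrg. The points share libraries and depth, and several are subdivisions of 1 class. Dab1 followed Reln with r = 0.78 and Lrp8 with 0.70, whereas Vldlr gave -0.11 with Reln and -0.40 with Lrp8. Over the 19 neuron types alone Reln and Dab1 gave 0.43.

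The first contrast asked how prenatal valproate changed these genes. A gene was counted as different when it was over 25% higher or over 20% lower than in the control library, without a test, and as measured when it had at least 50 UMIs in each library. None of the 4 was different by this rule in all neurons, in Sim1/Otp neurons or in GABAergic neurons, where 22.6%, 17.7% and 17.9% of all measured genes were. In GABAergic neurons this depended on the setting: Reln passed the rule with doublets kept (log2 ratio 0.34), with nuclei weighted equally (0.33) and with nuclei thinned to 1000 UMIs (0.46), and Vldlr passed it when thinned (0.61 in place of 0.060). Reln was 159 CPM in VPA neurons and 144 in saline neurons, a log2 ratio of 0.14 (0.10 to 0.19), and the median over all genes was 0.08. Without the thalamus-type neurons, which are low in Reln and were a smaller share of VPA neurons, beside more neurons without a type, the ratio was -0.04. Dab1 (0.07), Vldlr (0.16) and Lrp8 (0.03) were also within 0.2 on the log2 scale. Under median-of-ratios scaling, which moved all VPA ratios in neurons by -0.10, the ratio of Dab1 was -0.03 and that of Lrp8 -0.07.

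Within types the Reln ratios had both signs. In GABAergic neurons Reln was 130 CPM with saline and 159 with VPA, a log2 ratio of 0.29 (0.22 to 0.37), or 0.46 with nuclei thinned. Prox1 (0.73) and Lhx1 (0.85) GABAergic neurons were above that, and Pax6 neurons gave 0.07 (-0.32 to 0.44). In Sim1/Otp neurons the ratio was -0.18 (-0.26 to -0.10), but 0.024 when nuclei were weighted equally and 0.044 when they were thinned. In oxytocin neurons Reln was 380 in 90 saline nuclei and 215 in 80 VPA nuclei, a log2 ratio of -0.83 (-1.07 to -0.58). These nuclei were chosen by Oxt UMIs, and Oxt outside them was 31.3 CPM with saline and 89.9 with VPA in oligodendrocytes, and 18.2 and 38.9 in Sim1/Otp neurons; the part of free Oxt RNA in the ratio was not tested. Oxytocin nuclei with a Reln UMI at matched depth were 34.8% (25.0 to 45.7) with saline and 20.3% (12.0 to 30.8) with VPA. Nuclei are not replicates, and with 1 library per arm this difference was not tested. In the other experiment the hM3 control and CNO replicate 2 libraries gave 20% and 19.6%, and CNO replicate 1 gave 26.3% (9.15 to 51.2) on 19 nuclei. All libraries of that experiment were exposed to valproate, so exposure and experiment cannot be told apart in these values. The oxytocin nuclei of these 3 libraries held more of other markers, the 3 GABAergic ones summing to 90.9, 84.9 and 122 CPM against 17.7 with saline and 14.6 with VPA. Without thinning the shares were 43.8% and 32.9% with saline and VPA, and 35.7%, 36.8% and 47.8% in the hM3 control and CNO libraries. Vasopressin neurons had 38 Reln UMIs in 57 saline nuclei, 94.7% of them in 2 nuclei, and 5 in 48 VPA nuclei, all in 1 nucleus.

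The downstream adaptor gave a smaller ratio than Reln in oxytocin neurons, but not in thalamus-type neurons. Dab1 in oxytocin neurons was 653 CPM with saline and 485 with VPA (log2 ratio -0.43, interval -0.60 to -0.26), and in thalamus-type neurons 623 and 794 (0.35, interval 0.29 to 0.41). Prkcd-rich nuclei, low in Dab1, numbered 21 with saline and 2 with VPA among the thalamus-type neurons, and without them Dab1 was 653 and 800 (0.29). Lrp8 in astrocytes was 56.1 on 144 UMIs and 31.9 on 70 UMIs, a log2 ratio of -0.82 (-1.25 to -0.39), and the 3 libraries of the other experiment lay at 49.5, 52.4 and 51.4.

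**Figure D4:**
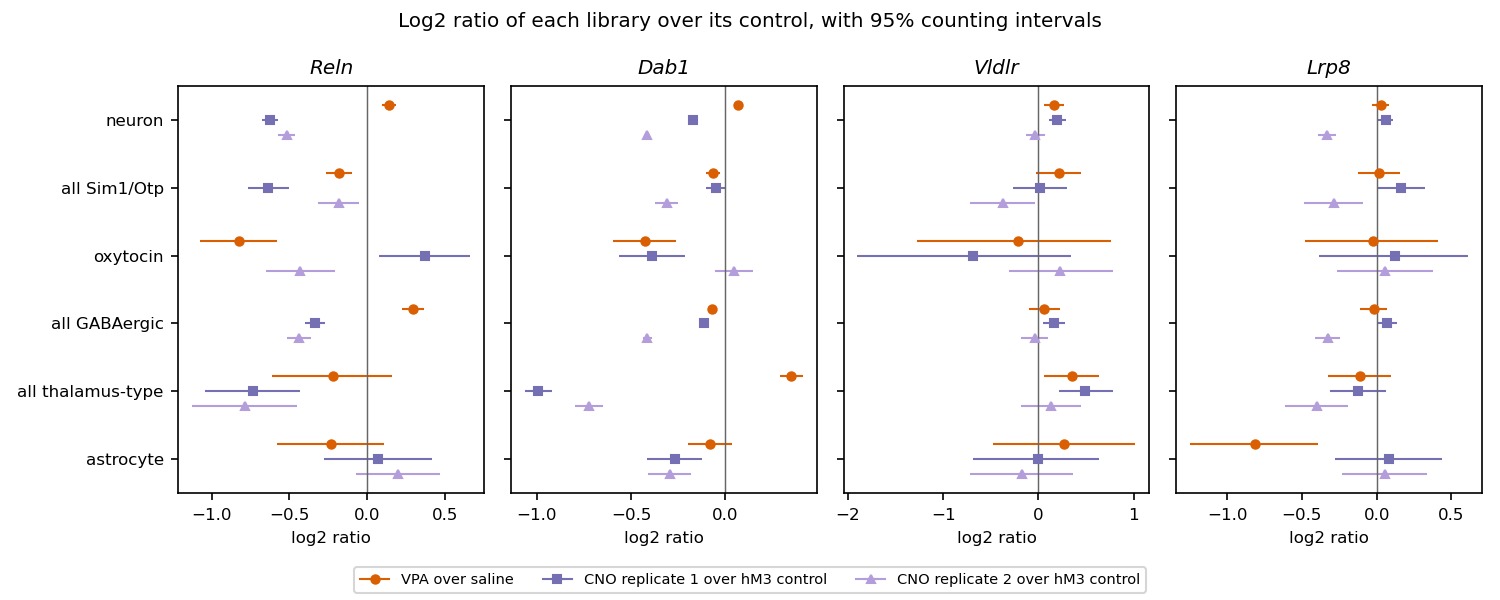
Log2 ratio (x axis) of each library over the control of its own experiment for the 4 genes in 6 cell groups, with 95% counting intervals; oxytocin neurons of CNO replicate 1 rest on 19 nuclei. Reln in neurons lay at -0.63 and -0.52 in the CNO libraries, and the VPA ratios of Reln in oxytocin and in GABAergic neurons had opposite signs.

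The second contrast asked what CNO given on postnatal day 2 to carriers of hM3 changed in mice exposed to valproate. Reln was lower in both CNO libraries, at 87.4 and 94.3 CPM against 135 in the hM3 control, log2 ratios of -0.63 (-0.68 to -0.58) and -0.52 (-0.57 to -0.46). It was the 1 of the 4 genes different in both libraries alike in neurons, where 12.4% of measured genes were. Only 160 of those 1844 genes were lower, and 23 of 14897 measured genes (0.154%), Reln included, were as low in both. The same count gave 65 of 13237 genes (0.491%) in GABAergic neurons and 381 of 7832 (4.86%) in Sim1/Otp neurons. The limit was the smaller Reln drop itself and both ratios share 1 control library, so these shares are not a test. Nuclei with at least 5 Reln UMIs were 16.9% of control neurons and 11.8% and 9.67% of CNO neurons, a share that also depends on depth.

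The CNO ratios of Reln by type all share the 1 control library and are given singly. In the remaining Sim1/Otp neurons Reln was 312 in the control and 236 and 224 in the CNO libraries (log2 ratios -0.41 and -0.48). In GABAergic neurons it was 129 against 102 and 95.1 (-0.34 and -0.44), where 11.4% of genes were different in both libraries and Reln was the 1 of the 4 that was. In Sim1/Otp neurons together (-0.64 and -0.18) none of the 4 was, against 8.89% of genes. Thalamus-type neurons had 38.3 against 23.0 and 22.2 (-0.74 and -0.79). Prox1 GABAergic neurons gave -0.93 and -0.78, whereas Pax6 neurons gave 0.17 and -0.40 and Lhx1 neurons 0.22 and -0.04. Oxytocin neurons went different ways, with 191 in the control, 247 on 19 nuclei and 141. In the oxytocin neurons of CNO replicate 2, Sim1 stood at 249 CPM against 511 in the control and the thalamic marker Prkcd at 27.8 against 5.25; the part of this in the Reln level was not tested. Astrocytes did not differ beyond counting error (53.1 against 55.9 and 61.0). The share of the remaining Sim1/Otp neurons with a Reln UMI at matched depth was 29.2% in the control and 28.7% and 29.6% in the CNO libraries, with overlapping intervals, although the level was lower.

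Other measures moved with this contrast. Thalamus-type neurons, low in Reln, were 6.87% of neurons in the control and 11.7% and 15.2% in the CNO libraries, beside 13.3%, 14.8% and 28.8% without a type; without thalamus-type neurons the mean Reln ratio was -0.49 in place of -0.57, and with each of 10 types weighted equally -0.41. All 8 oligodendrocyte markers were detected in neurons of every library, and their summed level was 75.8 in the control and 142 and 205 in the CNO libraries, against 8034 to 10502 in oligodendrocytes. The thalamus list summed to 172 in GABAergic neurons of the control and to 255 and 558 in those of the CNO libraries. The part of these in the Reln difference was not tested.

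Dab1 was also lower in both CNO libraries but not by over 20% in both, at 1125 and 952 against 1269 (log2 ratios -0.17 and -0.42). Thalamus-type neurons had a wider gap, with 375 and 452 against 747 (-0.99 and -0.72), beside more Prkcd-rich nuclei (60 and 76, against 6 in the control). In those with low Prkcd alone Dab1 was 484 and 539 against 764 (-0.66 and -0.50). Astrocytes had 281 and 276 against 338 (-0.27 and -0.30). Of the receptors, Vldlr in neurons was 37.4 and 31.8 against 32.6 (0.20 and -0.03), and Lrp8 105 and 80.0 against 100.6 (0.06 and -0.33); the CNO libraries disagreed in direction for both. Median-of-ratios scaling moved the ratios of all genes in neurons by -0.11 and -0.15 and took the Reln mean to -0.70.

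The rest of the pathway was read from a list of 70 genes in 11 functional arms. In neurons 65 were measured in the VPA contrast (at least 50 UMIs in each library), with 7 over 25% higher and 3 over 20% lower, or 15.4% against the 22.6% of all genes. In the CNO contrast 66 were measured, with 4 higher and 0 lower in both libraries, or 6.06% against 12.4%. Median log2 ratios were 0.02 and -0.02.

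Among ligands that share these receptors, Apoe was 11.3 CPM in saline and 20.4 in VPA neurons (log2 ratio 0.85). In the CNO contrast it was 22.9 and 65.3 against 25.5. Apoe is known as an astrocyte transcript, and the part of astrocyte RNA in these values was not tested. The ephrin ligand Efnb3 was 11.5 and 16.8 (0.55) in the VPA contrast. Of the kinases of Dab1, Src was lower in VPA neurons (57.8 and 43.9, log2 ratio -0.40), while Fyn, the main one, was 187 and 183. The actin-severing protein cofilin (Cfl1) was higher in both contrasts, at 11.6 and 18.3 in saline and VPA neurons (0.66) and at 11.7 against 16.2 and 17.1 in the CNO contrast (0.47 and 0.55). In the CNO contrast the scaffold Mapk8ip1 (44.7 against 56.7 and 61.1) and the Dab1 homolog Dab2 (3.39 against 5.94 and 5.52) were higher as well. The aggrecanase Adamts4 was 0.907 against 1.28 and 2.66. It is also an oligodendrocyte transcript, and the part of oligodendrocyte RNA in these values was not tested. The component of Dab1 degradation Cul5 (110 against 105 and 103) and the Lis1 gene Pafah1b1 (322 against 318 and 333) differed by under 0.1 on the log2 scale.

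**Figure D5:**
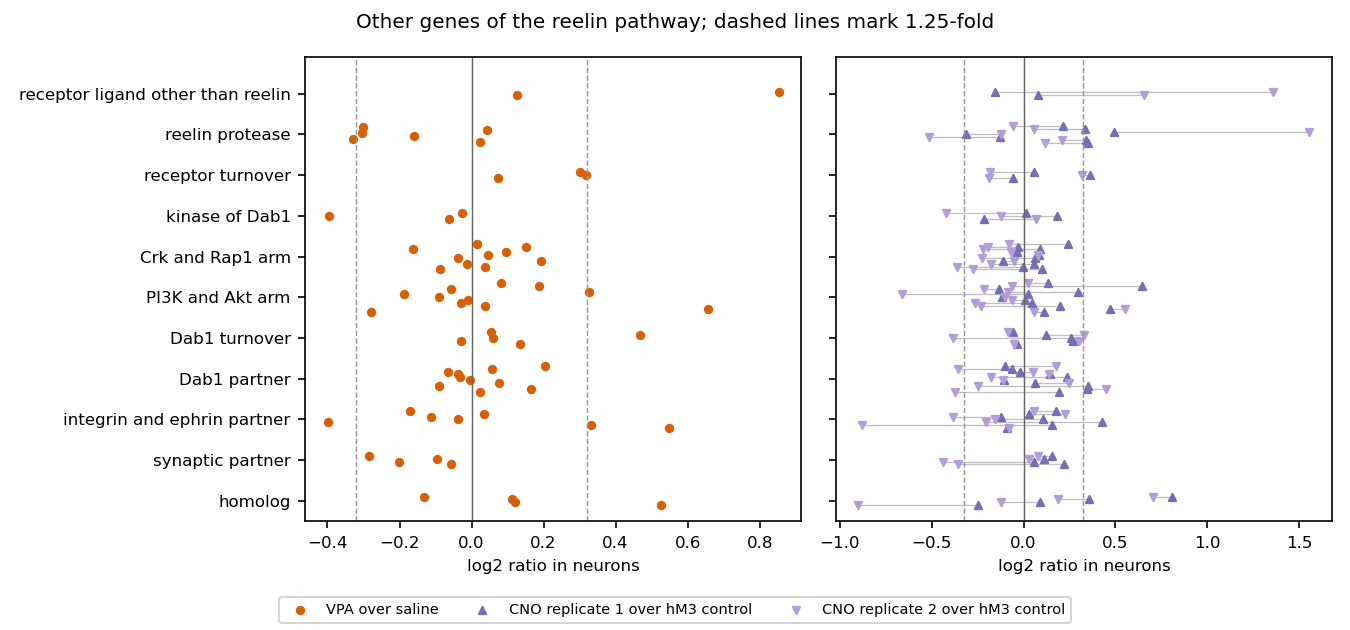
Log2 ratios in neurons (x axis) of the measured genes of 11 arms of the reelin pathway, 1 point per gene and library, with dashed lines at 25% higher and 20% lower and grey lines joining the 2 CNO libraries of a gene. Most genes lay between the lines, and 4 passed the upper line in both CNO libraries.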

How the data were processed

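The deposited values are raw UMI counts per gene and nucleus in filtered matrices, made by the authors with Cell Ranger 7.0.1 on mm10 per the submitters' processing notes; strand and intron settings are not given in the sources used here. Nuclei under 1000 UMIs or over 5% mitochondrial UMIs were left out, and the highest Scrublet scores (scanpy 1.11.5) were removed at 0.8% per 1000 nuclei. A class needed at least 5 UMIs of its marker list and 50% of all list UMIs; neuron types were set by further marker UMIs, with limits chosen after the marker UMIs had been seen. Oxytocin and vasopressin neurons needed at least 5 Oxt or Avp UMIs and a Sim1 or Otp UMI. Means of levels use libraries with at least 20 nuclei; ratios between cell groups use all 5. No count model was fitted. Ratios carry exact conditional binomial intervals at 95%, levels exact Poisson ones, which cover counting error only; the script was tested on simulated data. Similarity used Pearson correlation of log2(level + 10) over genes with at least 500 UMIs. Named genes were the 4 members, for each the 5 most similar, and pathway genes over 25% higher or 20% lower in neurons (in both CNO libraries alike, or among the 3 largest in the VPA contrast), to which Src, Fyn, Cul5 and Pafah1b1 were added after their values were seen. Members, lists and rules were chosen with earlier results of these data known. Of the feature identifiers 99.6% were found in GENCODE vM21. Computation used Python 3.11.15 with numpy 2.4.6, scipy 1.17.1 and pandas 2.3.3.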

Additional observations from a re-analysis of the deposited data

Results flagged for a closer look

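Ratios of VPA over saline with intervals on opposite sides of 0 were found between neuron types for Reln and Dab1; the difference between types was not tested, and each rests on 1 library per arm. For Reln the log2 ratio was 0.29 in GABAergic neurons, against -0.18 in Sim1/Otp neurons, -0.83 in oxytocin neurons and -1.95 in vasopressin neurons, the last on 38 and 5 UMIs, of which 94.7% of the former lay in 2 saline nuclei and all of the latter in 1 VPA nucleus. The Sim1/Otp value of Reln was 0.024 with nuclei weighted equally and 0.044 with nuclei thinned, and so no longer opposite. For Dab1 it was 0.35 in thalamus-type neurons (0.29 in those with low Prkcd alone), against -0.43 in oxytocin neurons, -0.066 in Sim1/Otp neurons and -0.069 in GABAergic neurons; the Sim1/Otp value was 0.0011 with nuclei thinned.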

How the results depend on the processing

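No paired analysis was possible because only the CNO libraries carry replicate numbers. In neurons, the Reln ratio of VPA over saline was 0.32 with nuclei weighted equally, 0.26 thinned to 1000 UMIs, 0.060 with stricter neuron markers, 0.046 with median-of-ratios size factors, 0.016 with neuron types weighted equally and -0.036 without thalamus-type neurons. That of Dab1 was 0.039 with stricter markers, and -0.014, -0.039, -0.052, -0.027 and -0.084 with equal nuclei, thinning, no thalamus-type neurons, size factors and equal types. Thinning gave 0.0074 for Vldlr, and size factors -0.070 for Lrp8. The Reln ratio of CNO over control was -0.68 thinned, -0.49 without thalamus-type neurons, -0.70 with size factors and -0.41 with equal types; leaving out a CNO library gave -0.52 to -0.63. In Sim1/Otp neurons the VPA ratio of Reln was 0.024 with equal nuclei and 0.044 thinned, and that of Dab1 0.0011 thinned and -0.013 with doublets kept, while thinning took Vldlr from 0.21 to -0.15 and Lrp8 from 0.016 to 0.28. In GABAergic neurons thinning gave VPA ratios of 0.46 for Reln and 0.61 for Vldlr, and a Reln ratio of CNO over control of -0.51 (size factors -0.52). With no low-count filter 38.0% of 23239 genes differed by over 25% up or 20% down with VPA, and 21.3% of 22786 genes with CNO. The cause of these moves was not tested. All 7 level ratios between cell groups that were recomputed kept their direction. Settings for single types and level ratios were added after seeing the data. Oxytocin and vasopressin neurons of CNO replicate 1 rest on 19 and 12 nuclei.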

Other observations

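In endothelial nuclei Vldlr gave 14 UMIs in 33 nuclei of the saline library and 0 UMIs in the other 4 libraries, which held 13, 35, 8 and 99 endothelial nuclei. In oligodendrocyte progenitors Reln stood at 42.7, 46.9, 39.4 and 52.0 CPM in 4 libraries but at 6.59 in CNO replicate 1, on 4 UMIs in 89 nuclei. In tanycyte or ependymal nuclei Reln reached 131 ± 124 CPM (SD, n = 2 libraries with at least 20 nuclei), a class of 75 nuclei in all. In Ebf-rich Sim1/Otp neurons the 2 CNO libraries lay on either side of the control in Reln, at 24.6 and 125 against 69.6.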
